A study of Mus musculus with 17 samples.

Results

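The 10 genes described here carry glucose into the cell and through glycolysis to lactate: Slc2a1, Hk2, Pfkp, Aldoa, Tpi1, Gapdh, Pgk1, Eno1, Pkm and Ldha. They were taken by symbol from the deposited gene count matrix, in which they occupy 11 of 55421 rows because Aldoa has a second identifier. Of these rows, 10 exceeded 10 CPM (the count scaled to library size) in at least 2 libraries, 1 for each symbol, and the second Aldoa row (ENSMUSG00000114515) stayed between 0 and 0.773 CPM. The rule that picked them used symbols and no measured value, but the symbols were chosen with earlier results of these data known.

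Total RNA-Seq was performed on lung fibroblast cultures from 17 mice, 1 library per mouse, to ask how deletion of Ephb4, a receptor tyrosine kinase of the ephrin system, alters the response to bleomycin, which is used to provoke lung fibrosis. All mice, controls included, carried the same alleles, Ephb4 f/f and Col1a2-CreERT2, a Cre recombinase driven by the Col1a2 promoter and switched on by tamoxifen. Ephb4 CKO mice received 4-hydroxytamoxifen at 1 mg per day for 5 days at 4 weeks of age, and Ephb4 control mice received corn oil. Every comparison of CKO with control, called genotype below, was therefore also a comparison of 4-hydroxytamoxifen with corn oil. The effects of deletion and of the drug cannot be told apart. At 6 weeks the mice were given bleomycin (1.2 U/kg) or PBS, and 14 days later cells were taken from the lungs, grown and passaged once before RNA extraction. The groups were Ephb4 control PBS (n = 4), Ephb4 control bleomycin (n = 4), Ephb4 CKO PBS (n = 5) and Ephb4 CKO bleomycin (n = 4), with mice of both sexes. Deletion was limited to cells with an active Col1a2 promoter, and the cultures were measured in bulk, so a lower proportion of a cell type and less RNA per cell cannot be told apart.

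Glycolysis splits glucose into pyruvate in the cytosol with a small yield of ATP. When lactate dehydrogenase then reduces pyruvate to lactate, the NAD+ that the pathway consumes is regenerated. Activated fibroblasts and inflammatory macrophages are both known for strong glycolysis, and several of these genes are established targets of the hypoxia-inducible factor HIF-1, which binds short DNA elements with the core ACGTG or GCGTG.

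Promoter sequences were read from RefSeq (GRCm38.p6) as windows of 250 bases before and 50 bases after an annotated start, which gave 16 windows for the 10 symbols. The letters ACGTG, on either strand, were found in 8 windows of 7 genes. The letters GCGTG occurred in 8 windows of 5 genes. Of all 32851 windows of this length in the table, 19.6% held ACGTG, 32.4% held GCGTG and 43.8% held at least 1 of them. Of the members' windows, 4 are printed 5′ to 3′ with the matched letters of either strand in capitals (CACGT and CACGC are the opposite-strand forms, and CACGTG holds ACGTG on both strands), because they span the range of the patterns across libraries described further on. Pgk1 (chrX:106186850-106187149, forward strand) and Tpi1 (chr6:124814109-124814408, reverse strand) varied most alike, Ldha (chr7:46845554-46845853, forward strand) had the most ACGTG matches, and Hk2 (chr6:82774405-82774704, reverse strand) varied least like the others.
Pgk1: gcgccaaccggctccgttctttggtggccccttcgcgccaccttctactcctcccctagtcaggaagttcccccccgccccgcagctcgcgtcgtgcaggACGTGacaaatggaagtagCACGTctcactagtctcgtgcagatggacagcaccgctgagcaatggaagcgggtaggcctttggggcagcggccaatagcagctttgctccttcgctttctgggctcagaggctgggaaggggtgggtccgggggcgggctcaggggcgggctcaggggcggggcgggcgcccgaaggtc
Tpi1: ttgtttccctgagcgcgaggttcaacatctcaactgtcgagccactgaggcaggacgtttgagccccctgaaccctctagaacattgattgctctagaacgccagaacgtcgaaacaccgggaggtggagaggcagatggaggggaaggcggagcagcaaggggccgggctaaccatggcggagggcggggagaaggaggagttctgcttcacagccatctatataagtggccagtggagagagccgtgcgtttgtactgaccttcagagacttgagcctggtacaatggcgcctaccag
Ldha: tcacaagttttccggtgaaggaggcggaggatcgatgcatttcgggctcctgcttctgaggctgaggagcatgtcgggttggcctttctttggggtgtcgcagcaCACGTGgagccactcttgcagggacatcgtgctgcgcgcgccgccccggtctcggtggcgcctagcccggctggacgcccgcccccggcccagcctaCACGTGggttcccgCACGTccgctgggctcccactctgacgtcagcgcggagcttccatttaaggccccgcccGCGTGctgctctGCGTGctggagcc
Hk2: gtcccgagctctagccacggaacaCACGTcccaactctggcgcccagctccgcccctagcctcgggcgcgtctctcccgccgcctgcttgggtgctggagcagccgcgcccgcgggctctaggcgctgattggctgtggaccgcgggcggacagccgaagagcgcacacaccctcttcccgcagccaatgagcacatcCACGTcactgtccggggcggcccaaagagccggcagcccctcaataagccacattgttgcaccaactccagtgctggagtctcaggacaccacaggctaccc
The Ldha window held 5 matches of ACGTG and 2 of GCGTG, the Pgk1 and Hk2 windows held 2 of ACGTG each, and the Tpi1 window held neither. A match of 5 letters is a description of the sequence and no evidence of binding.

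The other printed stretch concerns how reads were assigned to Gapdh. It is the first 75 bases of the Gapdh coding sequence (bases 241 to 315 of the transcript Gapdh-203, GENCODE M21), as long as 1 read of this experiment, beside the same stretch in processed pseudogenes annotated elsewhere in GRCm38. Capitals mark bases that differ from Gapdh.
Gapdh: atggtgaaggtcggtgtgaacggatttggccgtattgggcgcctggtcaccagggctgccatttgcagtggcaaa
Gm7336: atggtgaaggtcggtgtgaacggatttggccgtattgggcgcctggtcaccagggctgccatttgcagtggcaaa
Gm2574: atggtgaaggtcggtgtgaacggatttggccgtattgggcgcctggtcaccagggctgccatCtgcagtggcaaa
Gm10284: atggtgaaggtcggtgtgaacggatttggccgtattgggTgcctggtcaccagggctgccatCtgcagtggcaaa
Gm7336 (chr7:51746697-51746771) had 0 differences over these 75 bases, as did Gm5559, Gm12070 and Gm2606. Gm2574 (chr3:142962611-142962685) had 1 difference and Gm10284 (chr8:57550302-57550376) had 2.

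The libraries held 66540022 to 120554468 counts each. The 10 genes took between 0.308% and 1.09% of a library's counts. Ephb4 ranged from 2.32 to 33.4 CPM in control PBS, 13.1 to 65.1 in control bleomycin, 4.01 to 23.6 in CKO PBS and 4.93 to 14.0 in CKO bleomycin, so its ranges overlapped between genotypes under both treatments. After bleomycin the overlap rested on control bleomycin 2 (13.1 CPM) and CKO bleomycin 1 (14.0 CPM), whose sex-linked genes went against the label, as given below. The other control bleomycin libraries had 35.3 to 65.1 CPM and the other CKO bleomycin libraries 4.93 to 10.1. Of 14 fibroblast markers, all 14 exceeded 1 CPM in every control bleomycin library, but 4 did so in every control PBS library and 8 in every library of either CKO group. Their summed level was 6076 to 13421 CPM in control bleomycin against 52.6 to 7966, 111 to 2374 and 87.4 to 2040 CPM in control PBS, CKO PBS and CKO bleomycin. Of 18 macrophage markers, 17 or 18 exceeded 1 CPM in every library of each group, and they summed to 10148 to 46411 CPM in control PBS, 1333 to 18953 in control bleomycin, 20663 to 37855 in CKO PBS and 20737 to 43658 in CKO bleomycin. No marker of either list was at 0 throughout a group. In 3 libraries (control bleomycin 2, CKO bleomycin 1 and CKO bleomycin 2) the sex-linked genes went against the labelled sex. The labels state that sequencing was split into runs of 8 and 9 libraries without saying which. The columns of the matrix form 2 sorted runs of the same sizes, and values within each column run are given where they matter.

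All 10 genes were well expressed in every library. Per kilobase of annotated exon, Aldoa (the aldolase that splits fructose 1,6-bisphosphate) and Pkm (pyruvate kinase, which makes pyruvate and ATP) had the highest levels as counted on their own rows, at 410 ± 102 and 377 ± 85.1 CPM per kb (SD, n = 17). Ldha (lactate dehydrogenase A) followed at 261 ± 81.0, then Pgk1 (phosphoglycerate kinase, an ATP-yielding step) at 204 ± 86.6, Tpi1 (triosephosphate isomerase) at 159 ± 63.6, Eno1 (enolase) at 146 ± 51.8 and Gapdh (glyceraldehyde-3-phosphate dehydrogenase) at 128 ± 34.8 CPM per kb. The 3 genes at the entry of the pathway were lower: Slc2a1 (the glucose transporter GLUT1) had 39.4 ± 20.3, Hk2 (hexokinase, which phosphorylates glucose) 23.8 ± 6.50 and Pfkp (the platelet form of phosphofructokinase, the committed step) 7.35 ± 2.13 CPM per kb. Neighbours in this order lay within 1 SD of each other from Aldoa to Pkm, from Ldha to Pgk1, from Pgk1 through Tpi1 and Eno1 to Gapdh, and, by the SD of Slc2a1, from Slc2a1 to Hk2. Lengths are unions of all annotated exons, which lowers the level of genes with long unused exons (13401 bp for Pfkp, 4133 bp for Gapdh), and the Gapdh value lacks the counts on its copies. With all its copies added and over the same length, Gapdh had 484 ± 129 CPM per kb (SD, n = 17), above the mean of Aldoa by less than 1 SD.

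**Figure D1:**
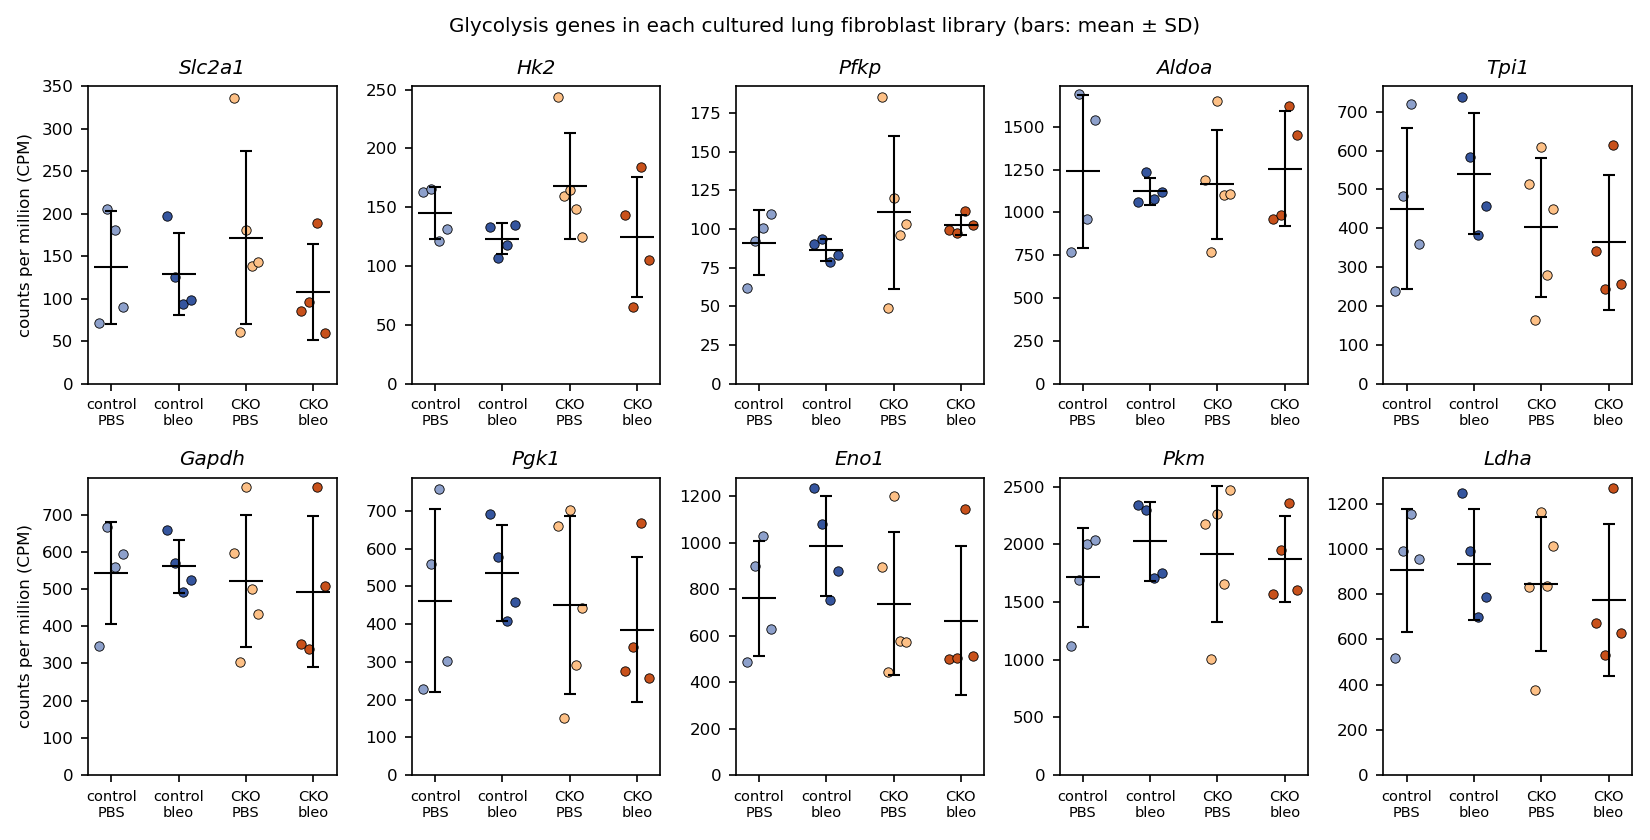
CPM of each of the 10 glycolysis genes by group on linear axes that start at 0, with 1 point per library, a line at the group mean and error bars of 1 SD. Slc2a1 spreads from 59.6 to 336 CPM, and the groups compared overlap for every gene except Pfkp, whose CKO bleomycin libraries all lie above the control bleomycin libraries.

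The transporter and the kinases of the upper pathway were examined first. Slc2a1 (chr4:119108711-119137983, forward strand) was at 71.3, 205, 181 and 89.6 CPM in the control PBS libraries, 198, 125.8, 94.1 and 98.0 in control bleomycin, 336, 60.6, 181, 138 and 143 in CKO PBS, and 85.2, 96.1, 189 and 59.6 in CKO bleomycin. Every group held both high and low libraries, and all 4 ranges overlapped. The highest library had 5.64 times the CPM of the lowest, the widest ratio among the members.

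Hk2 (chr6:82725025-82774454, reverse strand) was at 163, 165, 121.2 and 131 CPM in control PBS, 133, 107, 117 and 135 in control bleomycin, 244, 159, 165, 148 and 125 in CKO PBS, and 143, 65.2, 184 and 105 in CKO bleomycin. The control libraries were close together, and the CKO libraries supplied both the highest and the lowest value. Pfkp (chr13:6579768-6648777, reverse strand) was at 62.1, 92.2, 101 and 110 CPM in control PBS, 90.4, 93.6, 78.5 and 82.9 in control bleomycin, 186, 48.8, 120, 96.3 and 103 in CKO PBS, and 99.1, 97.1, 112 and 103 in CKO bleomycin. After bleomycin the lowest CKO library lay just above the highest control library, and in no other pairing of groups compared did Pfkp separate.

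In the middle of the pathway, Tpi1 (chr6:124810586-124814296, reverse strand) was at 237, 484, 721 and 360 CPM in control PBS, 738, 584, 384 and 457 in control bleomycin, 513, 163, 609, 280 and 449 in CKO PBS, and 342, 242, 616 and 256 in CKO bleomycin. In CKO bleomycin, 3 of the 4 libraries lay below all control bleomycin libraries and the fourth was above 3 of them. Pgk1 (chrX:106187100-106203699, forward strand) showed the same arrangement, with 228, 559, 758 and 303 CPM in control PBS, 692, 579, 409 and 458 in control bleomycin, 659, 150, 703, 292 and 442 in CKO PBS, and 274, 340, 669 and 257 in CKO bleomycin. Gapdh (chr6:125161715-125166467, reverse strand), counted without its copies, was at 348, 667, 559 and 595 CPM in control PBS, 658, 570, 492 and 524 in control bleomycin, 597, 304, 775, 501 and 434 in CKO PBS, and 351, 338, 774 and 508 in CKO bleomycin. Its groups overlapped throughout.

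Eno1 (chr4:150236721-150248879, forward strand) was at 488, 901, 1030 and 628 CPM in control PBS, 1236, 1079, 752 and 877 in control bleomycin, 894, 442, 1201, 576 and 573 in CKO PBS, and 498, 502, 1144 and 512 in CKO bleomycin. Here too the CKO bleomycin group had 3 low libraries and a single high one. Ldha (chr7:46841475-46855627, forward strand) was at 518, 993, 1153 and 957 CPM in control PBS, 1250, 991, 698 and 789 in control bleomycin, 832, 376, 1165.5, 838 and 1015 in CKO PBS, and 671, 533, 1271.4 and 627 in CKO bleomycin, again with overlap between all groups. The remaining enzymes varied least between libraries: Aldoa (chr7:126795234-126800751, reverse strand) spanned 768 to 1693 CPM, a ratio of 2.21, and Pkm (chr9:59656368-59679375, forward strand) spanned 1006 to 2473 CPM, a ratio of 2.46.

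Bleomycin in Ephb4 control mice was compared with PBS to ask how the injury itself altered the cells. None of the 10 genes passed the test. With edgeR's quasi-likelihood method, 0 of 10 reached an adjusted p under 0.05, and so did 0% of the 10481 genes tested. An unadjusted p under 0.05 was found for 0 of 10 members and for 14.3% of all genes tested. Groups without overlap were found for 0 of 10 members and 8.91% of all genes. The largest value was that of Eno1, with 986 ± 215 CPM after bleomycin and 761.6 ± 248 after PBS (SD, n = 4 each), a log2 fold change of 0.37 (SE 0.36, 95% interval -0.40 to 1.15, edgeR adjusted p = 0.626). Hk2 was at the other end with 123 ± 13.2 against 145 ± 22.1 CPM, a log2 fold change of -0.24 (SE 0.27, edgeR adjusted p = 0.677). The median over the members was 0.04, with 6 of 10 above 0, beside a median of -0.06 and 44.5% above 0 among all genes. It was -0.19 within column run 1 and 0.43 within column run 2, and 0.58 with the animal number series as a covariate. The series were read from the numbers in the sample titles. Numbers whose first digits are 11 or 12 were called series 11 and 12 here, and what these digits stand for was not established. All 4 control bleomycin mice were of series 12 but 3 of the 4 control PBS mice were of series 11.

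In mice given PBS, Ephb4 CKO and control cultures were compared to ask whether the deletion mattered without injury. Again 0 of 10 members passed the edgeR test (adjusted p = 1.00 for each), and so did 0% of all genes. Unadjusted p was under 0.05 for 0 of 10, against 1.99% of all genes. No member separated the groups, which 0.248% of genes did. Slc2a1 had the largest difference, 172 ± 102 CPM in CKO PBS (n = 5) and 137 ± 66.2 in control PBS (n = 4), a log2 fold change of 0.33 with an SE of 0.47 and a 95% interval from -0.67 to 1.32. Tpi1 had the lowest value, -0.16 (SE 0.41). The members' median was -0.04 and that of all genes -0.02.

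The comparison of Ephb4 CKO with control after bleomycin asks whether the deletion altered the injured state. With edgeR 0 of 10 members were called after adjustment, and so were 0% of all genes. Unadjusted p was under 0.05 for 0 of 10 members, where it was for 20.2% of all genes. Eno1, Tpi1 and Pgk1 had the lowest values, and none passed the test. Eno1 was at 664 ± 320 CPM in CKO and 986 ± 215 in control mice, a log2 fold change of -0.57 (SE 0.37, 95% interval -1.35 to 0.21, edgeR adjusted p = 0.356). Tpi1 was at 364 ± 174 against 541 ± 155 CPM, likewise -0.57 (SE 0.43, edgeR adjusted p = 0.430), and Pgk1 at 385 ± 193 against 535 ± 127 CPM, -0.47 (SE 0.48, edgeR adjusted p = 0.557). On log2 CPM, 2-sided exact permutation tests of 4 against 4 libraries gave p = 0.114 for Eno1 and p = 0.143 for Tpi1 and for Pgk1.

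Pfkp had the highest value, 103 ± 6.38 CPM in CKO bleomycin and 86.3 ± 6.91 in control bleomycin, a log2 fold change of 0.25 (SE 0.29, 95% interval -0.36 to 0.86, edgeR adjusted p = 0.610). It was the only member, 1 of 10, whose groups did not overlap, and 23.1% of all genes were separated in the same comparison. The exact permutation p was 0.0286, the smallest that 4 against 4 libraries can give, before any adjustment for the 10 members. Over the members the median log2 fold change was -0.22 with 3 of 10 above 0, against 0.01 and 50.7% among all genes. With the animal number series as a covariate (series 12 for all 4 control bleomycin mice and for 2 of 4 CKO bleomycin mice) the median was -0.49, and Eno1 at -0.88 and Ldha at -0.69 had an unadjusted p under 0.05. Eno1 also did so at -0.95 with only animals of series 12, and Eno1 at -0.97 and Tpi1 at -0.95 without CKO bleomycin 3, but 0 of 10 members passed after adjustment with edgeR in any of these fits. The members' median was 0.12 within column run 1 and -0.72 within column run 2, 0.01 without the 3 libraries whose sex-linked genes went against the label, -0.55 without CKO bleomycin 3, and 0.02 with the fibroblast marker level as a covariate. Fibroblast markers moved with this comparison: their mean log2 CPM ranged from 7.36 to 8.39 in control bleomycin and from 0.49 to 6.56 in CKO bleomycin, and that of the macrophage markers from 3.90 to 7.86 and from 8.01 to 8.51. Another fit, which called no member, took the macrophage marker level as a covariate. Correlations of the members with both marker lists are given further on. Beyond these, the part of the markers in the members' values was not tested.

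**Figure D2:**
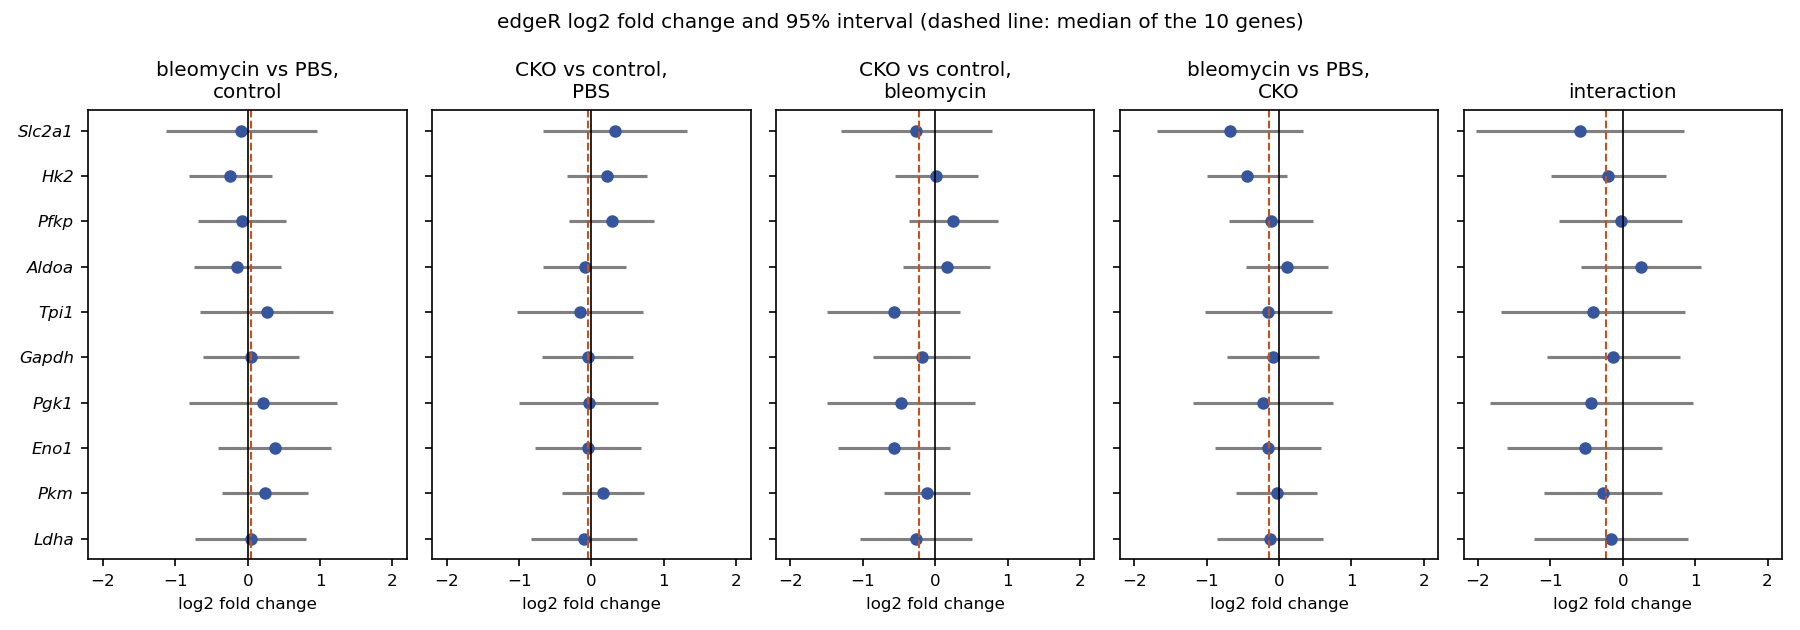
Log2 fold change of the 10 genes in the 5 comparisons, each with its 95% interval from edgeR, a solid line at 0 and a dashed line at the median of the 10 genes. All intervals include 0, and the values run from -0.68 (Slc2a1, bleomycin versus PBS in Ephb4 CKO) to 0.37 (Eno1, bleomycin versus PBS in Ephb4 control).

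Within Ephb4 CKO mice, bleomycin and PBS were compared to ask whether the injury had an effect once the gene was deleted. No member passed the edgeR test (adjusted p = 1.00 for each), and neither did any other gene. No member had an unadjusted p under 0.05 or separate groups, against 0.964% and 0.0859% of all genes. Among all genes tested 44.2% were above 0, and of the 10 values of the members 9 were below 0. The lowest were Slc2a1, with 107 ± 56.4 CPM after bleomycin (n = 4) and 172 ± 102 after PBS (n = 5), a log2 fold change of -0.68 (SE 0.47, 95% interval -1.68 to 0.33), and Hk2, with 124 ± 50.9 and 168 ± 45.1 CPM, -0.44 (SE 0.26, 95% interval -0.99 to 0.12). Aldoa was the member above 0, at 0.11 (SE 0.27). The members' median was -0.14, beside -0.03 among all genes. It was -0.50 without CKO bleomycin 3 and 0.05 without the libraries whose sex-linked genes went against the label.

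The interaction, which asks whether the effect of bleomycin differed between genotypes, was not significant for any member with edgeR, and 0 of 10 had an unadjusted p under 0.05, against 3.46% of all genes. The values ran from -0.59 for Slc2a1 (SE 0.68, 95% interval -2.03 to 0.85) to 0.25 for Aldoa (SE 0.39), with Eno1 at -0.52 (SE 0.50). The median was -0.24, with 1 of 10 members above 0, beside -0.003 and 49.7% among all genes. Because the members varied together, as described below, their signs are not independent. The members' median was 0.07 within column run 1 and -0.70 within column run 2. Across all genes, edgeR and limma voom called 0 genes in each of the 5 comparisons and DESeq2 called 166, 1, 399, 1 and 0 in the order given here, none of them a member. The intervals remained wide. Those of 6, 7, 5, 7 and 2 of the 10 members in the 5 comparisons stayed inside a 2-fold change in either direction, and those of the others reached past a 2-fold change.

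The variation that the members did show was between libraries of the same group. The SD of log2 CPM within groups was 0.73 for Slc2a1, 0.72 for Pgk1 and 0.64 for Tpi1, and between 0.39 (Hk2) and 0.53 (Ldha) for the other 7. The median of all genes tested was 0.42, and the members lay between the 45.2 and 72.0 percentiles of that distribution. Library CKO PBS 2 was the lowest of the 17 for 7 of the 10 genes. CKO bleomycin 3, CKO PBS 3 and CKO PBS 1 had all 10 genes above their own mean, with geometric means of 608, 602 and 599 CPM, against 280 in control PBS 1 and 232 in CKO PBS 2. The libraries named as high thus came from both CKO groups, and those named as low from PBS-treated mice of both genotypes. Next above the low ones were CKO bleomycin 2, 4 and 1 (312, 332 and 339 CPM). CKO PBS 2 and control PBS 1 also had the smallest total counts (66540022 and 74005256), both in column run 2. The members' mean log2 CPM was 8.91 ± 0.29 in column run 1 and 8.54 ± 0.44 in column run 2 (SD).

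**Figure D3:**
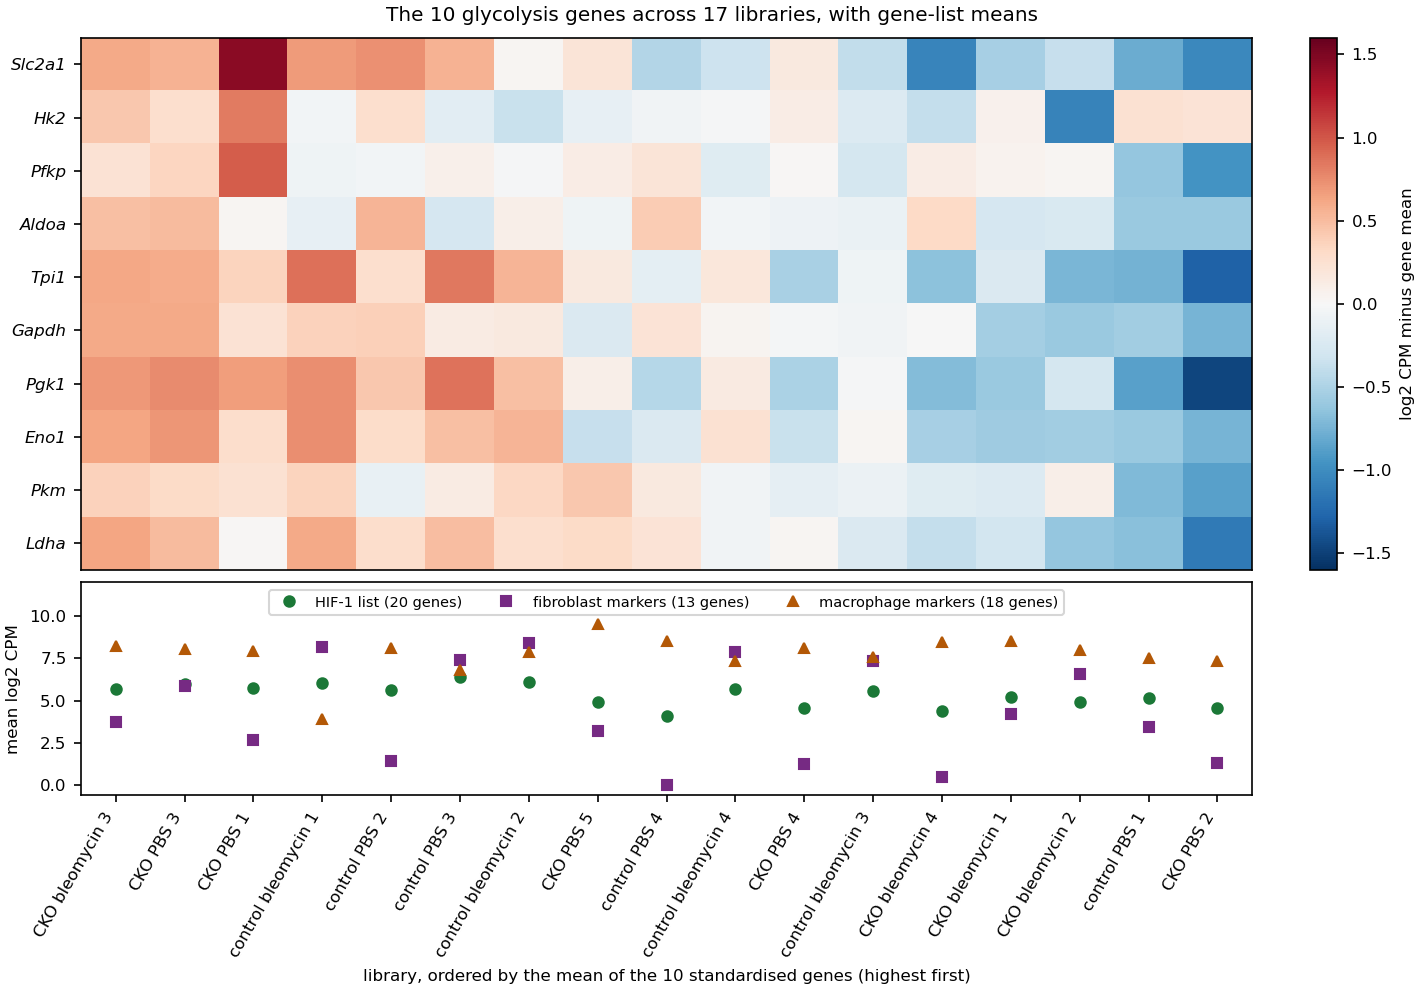
Top, log2 CPM of each gene minus its mean over the 17 libraries, with libraries ordered by the mean of the 10 standardised genes. Bottom, mean log2 CPM of the HIF-1 list and of fibroblast and macrophage markers in the same libraries. The 3 libraries at the left have all 10 genes above their mean, CKO PBS 2 at the right has 1, and libraries of all groups are intermixed.

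Most members varied together from library to library. Over the 17 libraries, Pearson's r of log2 CPM for the 45 pairs of members had a median of 0.68 and ran from -0.09 (Hk2 with Pkm) to 0.96 (Tpi1 with Pgk1), with 14 pairs above 0.8. Of the 45, 31 had an adjusted permutation p under 0.05 for Pearson's r and 25 for Spearman's rho. After subtraction of group means the median was 0.73, and 44 of 45 pairs were above 0. Leaving out the 2 libraries farthest from the median of the first gene gave a median of 0.66, and the medians within column runs 1 and 2 were 0.54 and 0.75. All values of a library share its depth and cell composition, and TMM scaling.

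Tpi1, Pgk1, Eno1, Gapdh and Ldha had the highest r with the mean of the other members, and Slc2a1 was close to Eno1. Within column run 1, Gapdh had r = 0.49 with Tpi1 and 0.61 with Pgk1, and Slc2a1 had 0.83 and 0.89. Within column run 2 these were 0.85 and 0.79 for Gapdh and 0.77 and 0.87 for Slc2a1. Tpi1 and Pgk1 had r = 0.96 and rho = 0.96, and r = 0.93 without the 2 libraries farthest from the Tpi1 median. Against the mean of the other 9 members, r was 0.91 for Pgk1 and Ldha, 0.90 for Gapdh, 0.89 for Tpi1, 0.85 for Eno1, 0.84 for Slc2a1, 0.79 for Pkm, 0.68 for Pfkp and 0.62 for Aldoa. Hk2 had 0.25. For comparison, 0.544% of the 10471 other genes reached an r above 0.8 with the mean of the members, and their median r was -0.02.

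The genes most like the mean of the members were mostly their own processed pseudogenes. By Pearson's r over the 17 libraries, 7 of the nearest 8 were annotated copies of Pgk1 (Pgk1-rs7 and Gm5537, both at 0.94) or of Gapdh (Gm3272, Gm10284, Gm7336, Gm16374 and Gm5559, 0.91 to 0.94). These copies share sequence with Gapdh or Pgk1, which are part of the mean, and reads can be divided between such rows. Their r is therefore no independent sign of likeness. Of the nearest 8, the remaining gene was Prelid2 at 0.93. Below them were Mif, a cytokine, at 0.91, Pgam1, the phosphoglycerate mutase between Pgk1 and Eno1 in the pathway, at 0.90, and Slc16a3, the lactate exporter MCT4, at 0.88. Mif and Slc16a3 were looked up further down the order after the values had been seen, as was Pgam1.

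Most counts on Gapdh sequence lay on the rows of its copies. Reads were not realigned here, so the locus each came from was not measured. Genes of which at least 50% of all 31-base words occur in a member's annotated transcripts numbered 43 for Gapdh, 40 of them processed pseudogenes, and these held 72.7% to 74.4% of the summed counts in every library. Gapdh itself had 529 ± 144 CPM and Gapdh with its copies 2001 ± 532 CPM (SD, n = 17). Gapdh-ps15 alone, annotated on the Y chromosome, held 4.69% to 5.04% of the sum of Gapdh and all 43 copies in the 17 libraries, of mice labelled female and male alike. Over the stretch printed above, a 75-base read of Gm7336 and one of Gapdh have the same letters.

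**Figure D4:**
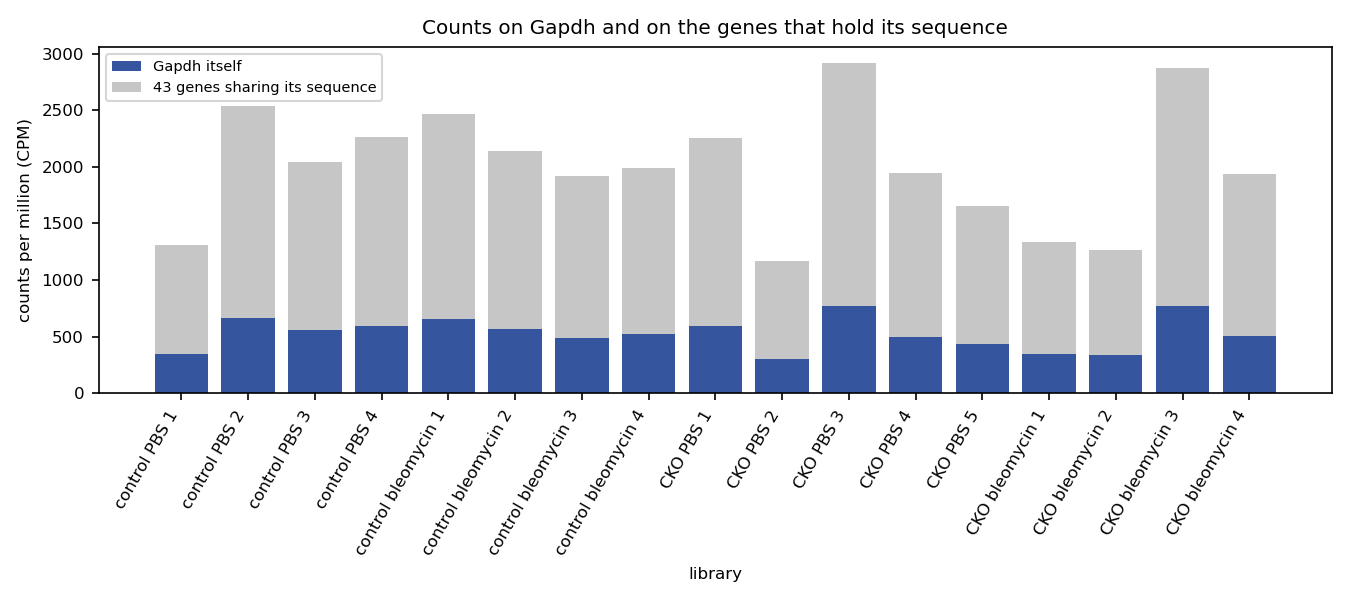
CPM counted on Gapdh itself and on its 43 sequence copies in each of the 17 libraries, as stacked bars. The copies hold 72.7% to 74.4% of the sum in each library, so the height of the bar varies between libraries while the split does not.

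For the other members the share on copies was smaller. Copies held 12.1% to 14.4% of the Eno1 sum, 8.06% to 9.37% on Eno1b alone, and 10.2% to 12.5% of the Pgk1 sum, 5.17% to 6.43% on Pgk1-rs7. They held 0.991% to 1.48% for Pkm and 0.606% to 1.10% for Tpi1, and no gene met the limit for Slc2a1, Hk2, Pfkp, Aldoa or Ldha. Adding the copies moved no log2 fold change of these members by more than 0.032. With copies added, Gapdh was at 2038 ± 525 CPM in control PBS, 2130 ± 241 in control bleomycin, 1987 ± 654 in CKO PBS (n = 5) and 1853 ± 744 in CKO bleomycin (SD, n = 4 for the others).

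Isoenzymes were compared as shares of the mRNA of their family. Per kilobase, Slc2a1 made up 98.3% of the glucose transporters Slc2a1, Slc2a3 and Slc2a4, Aldoa 95.04% of the aldolases, Eno1 95.6% of the enolases, Ldha 97.9% of the lactate dehydrogenases and Pkm 100% of pyruvate kinase to 3 digits (means over 17 libraries). In the kinases of the upper pathway the member was not alone. Pfkl, the liver form of phosphofructokinase, made up 71.2% ± 6.80 of its family and Pfkp 21.2% ± 6.59 (SD, n = 17). These shares rest on all annotated exons, 13401 bp for Pfkp and 6675 bp for Pfkl, so long unused exons would lower the share of Pfkp. Hk2 made up 42.6% ± 20.1 of the hexokinases, from 11.7% to 73.9%, and Hk3, the form known from myeloid cells, 46.4% ± 25.2, from 4.30% to 81.5%. By group, the Hk2 share was 49.97% ± 20.6 in control PBS, 56.0% ± 15.03 in control bleomycin, 37.1% ± 20.2 in CKO PBS and 28.8% ± 18.5 in CKO bleomycin.

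The Hk2 level itself varied less between groups than this share. Hk3 had 28.4 ± 33.9 CPM per kb in control PBS, 10.6 ± 8.01 in control bleomycin, 62.2 ± 50.3 in CKO PBS and 53.7 ± 24.4 in CKO bleomycin, beside 24.3 ± 3.71, 20.6 ± 2.21, 28.2 ± 7.56 and 20.8 ± 8.53 for Hk2. Hk3 had a log2 fold change of 2.34 in CKO against control after bleomycin (SE 0.96, unadjusted p = 0.0274, edgeR adjusted p = 0.223), which did not pass the threshold. Macrophage markers were higher in the same direction, 18 of 18 above 0 in that comparison, and their part in the Hk3 value was not tested.

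**Figure D5:**
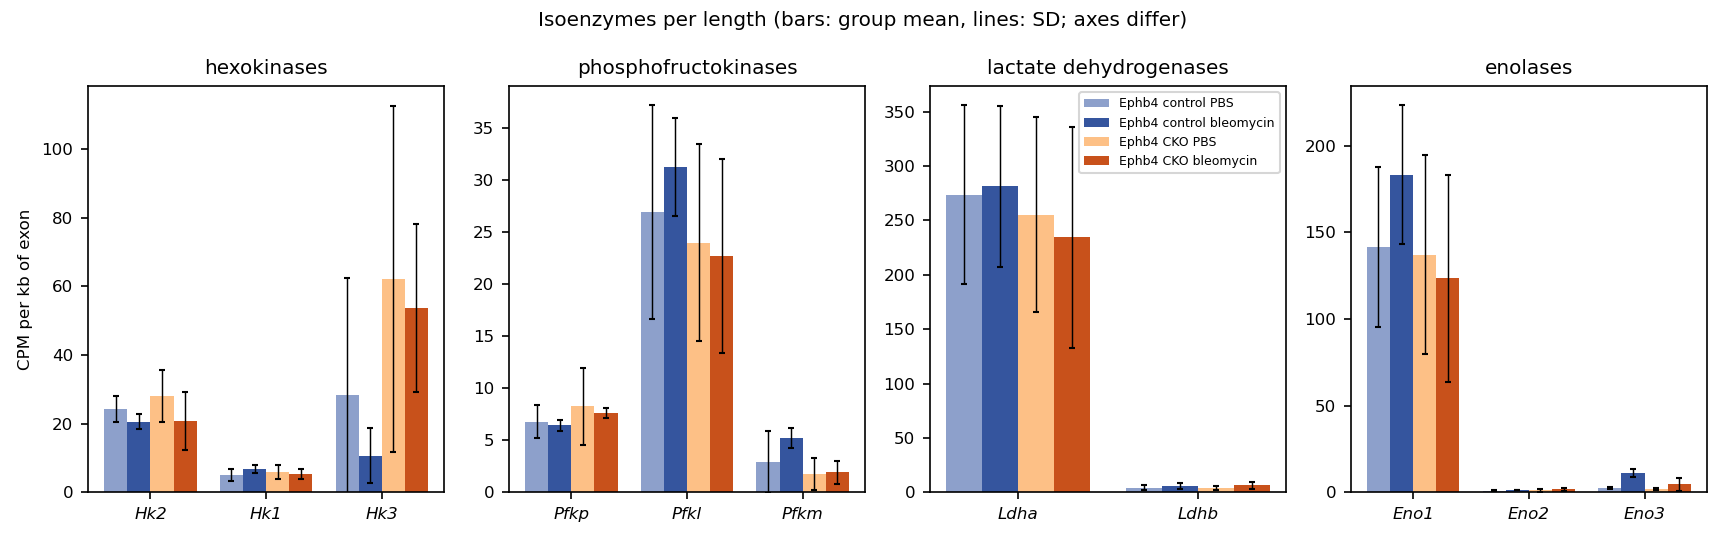
Levels of the isoenzymes of hexokinase, phosphofructokinase, lactate dehydrogenase and enolase in CPM per kb of exon, as group means (bars) with SD (lines) on axes that differ between panels. Hk3 varies between group means of 10.6 and 62.2 CPM per kb while Hk2 stays between 20.6 and 28.2, Pfkl exceeds Pfkp in each group, and Ldhb is far below Ldha.

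Other genes of central carbon metabolism were counted in lists. Of 25 further glycolysis genes, 16 were tested and none passed the adjusted threshold of edgeR's test in any comparison. At an unadjusted p under 0.05, 1 was higher and 1 lower after bleomycin in control mice, 2 were higher and 1 lower in CKO against control after bleomycin, 1 was higher after bleomycin in CKO mice, and 0 were found in the other comparisons. Of all genes tested, 14.3% reached this level after bleomycin in control mice, 20.2% in CKO against control after bleomycin and 0.964% after bleomycin in CKO mice, and the counts over the lists that follow stand beside the same shares. Eno3, the muscle enolase, had a log2 fold change of 2.14 (SE 0.43, unadjusted p = 0.000172, edgeR adjusted p = 0.237) after bleomycin in control mice, from 2.53 ± 0.346 to 11.2 ± 2.31 CPM per kb (SD, n = 4 each). Its groups did not overlap there, at 2.25 to 3.03 against 8.15 to 13.5 CPM per kb, as was so for 8.91% of all genes. Smooth muscle markers moved the same way, with a mean log2 CPM of 1.02 ± 2.87 and 6.49 ± 0.084. Fibroblast markers did so too, at 3.08 ± 3.21 and 7.95 ± 0.45. The part of either list in the Eno3 value was not tested. Pfkfb4, which sets fructose 2,6-bisphosphate, had 1.15 (SE 0.46, edgeR adjusted p = 0.220) in CKO against control after bleomycin.

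The pentose phosphate pathway, which branches off below hexokinase and makes NADPH, had the largest median in size of the 5 other metabolic lists. In CKO against control after bleomycin, 7 of 7 genes were above 0 with a median log2 fold change of 0.86, and 4 had an unadjusted p under 0.05, beside 50.7% of all genes above 0 and 20.2% at that level, while the 10 glycolysis genes had a median of -0.22. The 4 were G6pdx (1.06, SE 0.33), the entry enzyme, Taldo1 (1.24, SE 0.41), Rpia (0.86, SE 0.30) and Pgd (1.09, SE 0.42), with edgeR adjusted p from 0.197 to 0.218. In control mice 0 of 7 were above 0 after bleomycin, with a median of -0.83, and the same 4 had an unadjusted p under 0.05, beside 44.5% of all genes above 0 and 14.3% at that level. Macrophage markers had medians of 1.17 and -0.93 in these comparisons, and their part was not tested. The control bleomycin libraries enter both comparisons.

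Of 17 genes for the fate of pyruvate and lactate, 15 were tested, and 0 passed the adjusted threshold. In CKO against control after bleomycin, 3 were higher and 1 lower at an unadjusted p under 0.05 (20.2% of all genes), among them Pdha1, a subunit of pyruvate dehydrogenase, at -0.63 (SE 0.19, edgeR adjusted p = 0.196), and Pdp1, its activating phosphatase, at 1.184 (SE 0.48). After bleomycin in control mice 2 were higher and 3 lower (14.3% of all genes), including Mpc1, a subunit of the mitochondrial pyruvate carrier, at -1.32 (SE 0.43, edgeR adjusted p = 0.296), and Pdhb at -0.51 (SE 0.20). After PBS and within CKO mice 0 reached that level, and in the interaction 1 was higher and 0 lower. Of 7 genes of gluconeogenesis 3 were tested, Pck2, Pcx and G6pc3, and 0 had an unadjusted p under 0.05 in any comparison.

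The list of the HIF-1 system and its targets, which held none of the 10 members, had 20 of 22 genes tested and 0 adjusted calls. In CKO against control after bleomycin its median log2 fold change was -0.40 with 4 of 20 above 0, where 50.7% of all genes were. At an unadjusted p under 0.05, which 20.2% of all genes reached, 1 gene was higher and 3 were lower: P4ha1 and P4ha2, prolyl hydroxylases of collagen, at -1.23 (SE 0.43) and -2.71 (SE 1.08), and Ndrg1 at -2.58 (SE 1.02), with edgeR adjusted p from 0.211 to 0.220. Fibroblast markers had a median of -2.28 in this comparison, with 0 of 13 above 0. Their part in these values was not tested. After bleomycin in control mice 1 was higher and 1 lower, the latter Bnip3l at -0.62 (SE 0.21). The interaction also gave 1 and 1 (3.46% of all genes), and the other comparisons gave 0.

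Across the 17 libraries, the mean log2 CPM of this list followed part of the members. Pearson's r was 0.83 with Eno1 (rho 0.77), 0.82 with Pgk1 (rho 0.85) and 0.80 with Tpi1 (rho 0.84), each with an adjusted permutation p of 0.0010 for r over 30 relations. Without the 2 libraries farthest from the median of the list, r was 0.89, 0.85 and 0.88, and within column runs 1 and 2 it was 0.91 and 0.69 for Eno1, 0.91 and 0.72 for Pgk1, and 0.92 and 0.68 for Tpi1. Slc2a1 had r = 0.63 (adjusted permutation p = 0.0532) and rho = 0.65 (adjusted permutation p = 0.0409). Ldha had 0.55, Gapdh 0.49, Pkm 0.43, Pfkp 0.22, Hk2 0.18 and Aldoa 0.07, each with an adjusted permutation p above 0.05. None of the 10 members correlated with the fibroblast or the macrophage markers at an adjusted permutation p under 0.05, and r ran from -0.35 (Hk2) to 0.54 (Eno1) for fibroblast and from -0.43 (Eno1) to 0.29 (Aldoa) for macrophage markers. The highest r with fibroblast markers were those of Eno1, Pgk1 (0.53) and Tpi1 (0.53). The part of cell composition in the relation of the HIF-1 list to these members was not tested.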

How the data were processed

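Counts were deposited by the authors as 1 matrix of whole numbers per gene, not normalized. Per the labels and the methods, they prepared stranded total RNA libraries (75 paired-end cycles), trimmed reads with cutadapt (1.18 in the submitters' processing notes), aligned them to GRCm38 with HISAT2 2.1.0 and estimated transcripts with StringTie, whose script wrote the counts, so a count depends on how coverage was divided between near-identical transcripts. The libraries held 66540022 to 120554468 counts each. Groups came from the sample labels.

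CPM used TMM library sizes. Genes above 10 CPM in at least 2 libraries were kept (10481 of 55421). All 17 libraries entered 1 edgeR 4.0.16 quasi-likelihood fit (R 4.3.3) with a mean per group and no covariate, with Benjamini-Hochberg adjustment over all genes kept at 0.05. Single values were compared by 2-sided exact permutation tests on log2 CPM (prior count 2), and correlations by 100000 permutations, adjusted over 45 or 30 relations. The p-values measure the spread between mice. Exon lengths and coordinates were taken from GENCODE M21 (GRCm38), to which 55240 genes matched, and promoters from RefSeq (GRCm38.p6). Sequence copies were found with 31-base words. Alternatives were DESeq2 1.42.0 and limma 3.58.1 voom, other normalizations, filters, covariates and subsets, and each library left out. The fit was tested on simulated counts. All 10 members were named, with at most 4 genes of each other list by smallest unadjusted p. The members and lists were chosen with earlier results of these data known. The sequencing run of each library was not given in the sources used here.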

Additional observations from a re-analysis of the deposited data

Results flagged for a closer look

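Over the 10 glycolysis genes and 4 groups, 40 sets of 4 or 5 libraries were checked for a library far from the others, and 1 was found. Eno1 was at 1144 CPM in CKO bleomycin 3, while the other 3 CKO bleomycin libraries lay between 498 and 512 CPM, and the gap to the nearest library took 0.979 of the whole range. Chance alone marks about 1 in 20 such groups. The same library had all 10 genes above their means.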

How the results depend on the processing

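No member was called in any comparison under any alternative, and of 1810 member values under other settings or with a library left out, 9 had an unadjusted p under 0.05. Directions were less stable: of 50 member values, 10 kept their sign in all 20 settings and 25 with each of the 17 libraries left out in turn. With the fibroblast marker level as a covariate, Eno1 after bleomycin in control mice turned to -0.12, and Tpi1 and Pgk1 in CKO against control after bleomycin to 0.038 and 0.24. Within column run 1, Slc2a1 turned to -0.25 in CKO against control after PBS and to 0.40 in the interaction. Within column run 2, Tpi1 in CKO against control after PBS turned to 0.12 and Aldoa after bleomycin in CKO mice to -0.059. Aldoa also turned to -0.0082 with only animals of number series 12, and to -0.21 in the interaction with that series as a covariate. With 1 library left out, Slc2a1 in CKO against control after PBS ran from -0.077 to 0.59, Tpi1 there from -0.37 to 0.17, and Aldoa after bleomycin in CKO mice from -0.039 to 0.26. The cause was not tested. Medians over the members ran from -0.19 to 0.58, -0.07 to 0.16, -0.72 to 0.12, -0.32 to 0.05 and -0.70 to 0.07 over the other settings, in the order bleomycin in control, CKO after PBS, CKO after bleomycin, bleomycin in CKO and interaction. The column run in edgeR, each column run alone and the sequence copies were alternatives chosen after seeing the data. No paired analysis was possible because the labels carry no replicate numbers, and the numbers used here only name the mice. Pearson's r of the mean of the standardised members with total count was 0.29 (rho 0.12) over the 17 libraries. Single members ran from -0.07 (Hk2) to 0.48 (Pfkp). Beyond these correlations, the effect of depth was not tested.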

Other observations

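Gapdh is widely used as a reference gene for normalization, and 9 other genes of that kind were set beside it after the values had been seen. The within-group SD of log2 CPM was 0.44 for Gapdh, larger than that of 52.4% of all genes tested, and its highest library had 2.55 times the CPM of the lowest. Tbp, a general transcription factor, had an SD of 0.10 and a ratio of 1.35, Rplp0 had 0.20, Acad9 and Ywhaz 0.23 each, Ppia 0.30, Hprt 0.35 and Actb 0.37. The ratios of Hprt (2.62), Actb (2.56), Ppia (2.46) and Rplp0 (2.39) were close to that of Gapdh, and those of Acad9 (2.08) and Ywhaz (1.75) were lower. Gusb, a lysosomal enzyme, and B2m, the light chain of class I antigen-presenting molecules, had larger SDs of 0.77 and 0.86, with ratios of 7.67 and 31.6.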
